A study of Mus musculus with 6 samples.

Results

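The 10 genes described here, Gcsam, Nuggc, Mybl1, Rgs13, Efnb1, Eaf2, Neil1, Fas, Lmo2 and Stap1, mark germinal centre B cells without belonging to the core transcription factors of that state. They were taken by symbol, from a list proposed with results of these libraries known. All 10 were found among the 23420 genes listed for each library. Messenger RNA had been sequenced from germinal centre B cells that were enriched with beads and then sorted from mouse spleen, on day 10 after intraperitoneal immunization with NP-KLH, a hapten on a carrier protein. The KO group (3 libraries) had the genotype BASP1 fl/fl hCD20TamCre+/-, and the WT group (3 libraries) BASP1 +/+ hCD20TamCre+/-. Both groups therefore carried 1 copy of a Cre recombinase that tamoxifen activates in B cells, and both received 1 mg tamoxifen on day 5, day 7 and day 9. The Cre is named after CD20, a marker of B cells of many stages, and its activity is not specific to germinal centre cells. Libraries are numbered 1 to 3 in each group, and the labels do not say whether they came from separate mice. The p-values therefore concern these libraries only and cannot be read as measuring the spread between mice. The comparison asked how transcripts of germinal centre B cells differ when Basp1, the gene of a membrane-anchored signalling protein that can also repress transcription, is floxed.

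Germinal centres are sites in lymphoid follicles where B cells divide, change their antibody genes by mutation and compete for antigen. The cells pass between a dark zone of division and mutation and a light zone of selection, and most of them die by apoptosis. The genes described here serve that life in different ways. Gcsam and Stap1 are adaptors of antigen receptor signalling, Rgs13 and Efnb1 bear on movement and on contact with T cells, Fas and Eaf2 on cell death, Nuggc and Neil1 on the integrity of DNA, and Mybl1 and Lmo2 on transcription. All libraries came from germinal centre B cells, so restriction of a gene to these cells was not measured.

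Values are log2 CPM, where CPM are read counts scaled to the size of the library, and differences are KO minus WT on that log2 scale. The libraries had been put on a common distribution (linear sums of 997617 to 1000513 CPM), and their read depth is unknown. Differences between replicate numbers were also gone: WT and KO values of 1 number had the same sum for all 3 numbers, to within 0.001, for every gene. A high WT value is therefore mirrored by a low KO value of the same number, and the 6 values of a gene hold a mean and 3 paired differences. Basp1 stood at 5.49, 5.90 and 5.53 log2 CPM in WT libraries 1 to 3 and at 3.27, 2.86 and 3.23 in the KO libraries, a difference of -2.51 ± 0.45 (SD, n = 3 pairs; limma adjusted p = 3.3e-16), so the targeted gene matched the labels. All 10 genes, Bcl6, S1pr2 and Mef2b, which mark germinal centre B cells, had a mean of at least 1 CPM, and so did all 7 pan B cell markers.

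None of the 10 genes passed 5% FDR between KO and WT, in limma with the replicate number as a block and adjustment over all 10133 genes tested. The background was 0.266% of genes called in either direction. At an unadjusted p under 0.05 there were 4 of the 10, Eaf2, Nuggc, Fas and Gcsam, all lower in KO, beside 4.66% of all genes tested that were lower at that limit. In 5 genes (these 4 and Neil1) all KO libraries lay below all WT libraries, and no gene had all KO libraries above. Over all genes tested, 12.5% had KO wholly below WT and 15.2% wholly above, 27.7% in all. A negative mean difference was found for 8 of the 10 and for 48.6% of all genes. The median difference was -0.13 over the 10 genes, with pair medians of -0.081, -0.157 and -0.144, against a median of 0.0037 over all genes tested. The 10 genes were proposed with results of these libraries known, so these counts are a description and carry no test of the group.

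**Figure D1:**
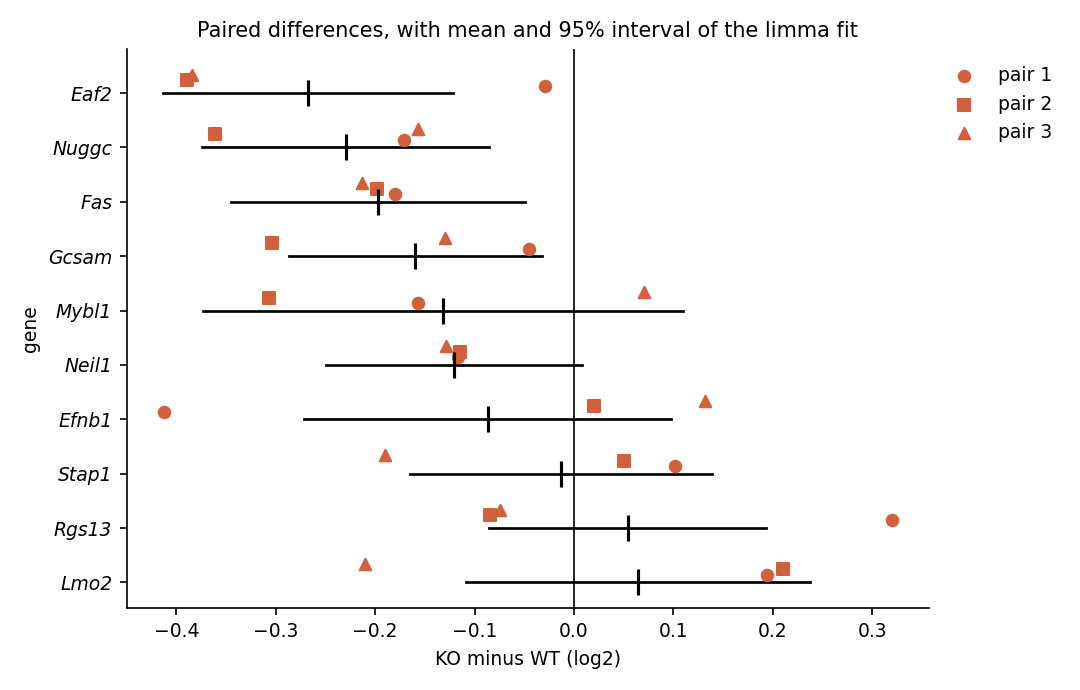
Difference between KO and WT (x axis, log2) for each of the 10 genes (y axis), with the 3 paired differences as points, their mean as a black tick and the 95% interval of the limma fit as a line. The points of Eaf2, Nuggc, Fas, Gcsam and Neil1 all lie left of 0, and the interval of Neil1 reaches 0.01.

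Markers that moved between the groups are given here as measured facts. The summed level of the 7 pan B cell markers was 8451 to 8786 CPM in WT and 7930 to 8246 CPM in KO, without overlap. In pair 3 the sum was also lower in KO (8451 CPM in WT and 8246 in KO). The pair medians over the 7 genes were -0.181, -0.107 and 0.019, so by the median pair 3 was not lower. Of single genes tested, 27.7% had groups that did not overlap. The 8 T cell markers in the files summed to 188.8 to 201.7 CPM in WT and 220.8 to 235.8 CPM in KO, also without overlap. Lck was the only one of them at 1 CPM or more, and the defining marker Cd3e lay in all 6 libraries at -5.063 log2 CPM, the most common value in the files, called the floor here (single values of other genes lie below it). Naive and follicular B cell markers (10 of 11 at 1 CPM or more) overlapped in sum, at 512 to 580.1 CPM in WT and 551.4 to 625.7 in KO. Their median difference was 0.536 in pair 2 against -0.108 and -0.203 in pairs 1 and 3. Within that list Cd38 lay wholly higher in KO (3.65 to 3.99 log2 CPM in WT and 4.125 to 4.47 in KO). So did Ccr6, at only 0.756 CPM on average, while the groups overlapped for the other genes of the list. Nuclear RNA, a sign of RNA quality, had pair medians of -0.442, -0.972 and 0.324 over 4 genes. Plasma cell markers (6 of 8 at 1 CPM or more) summed to 3177 to 3383 CPM in WT and 3000 to 3194 in KO, with pair medians of 0.007, 0.169 and -0.082. Igj, at 1750 CPM on average, made up most of that sum. The plasma cell regulators Prdm1 (-0.11 to 0.41 log2 CPM in WT and 0.94 to 1.46 in KO) and Irf4 (3.36 to 3.59 and 3.83 to 4.06) were higher in every KO library. Their limma adjusted p-values were 0.256 and 0.0636. Prdm1 averaged only 1.6 CPM, and 15.2% of all genes tested lay wholly higher in KO. The plasma cell surface marker Sdc1 was also higher in every KO library (-0.70 to -0.51 log2 CPM in WT and -0.18 to 0.02 in KO). At 0.789 CPM on average it was too low to be tested. The groups overlapped for Igj (10.75 to 10.94 log2 CPM in WT and 10.61 to 10.80 in KO) and Slpi (7.36 to 7.58 and 7.24 to 7.47). They also overlapped for Mzb1 (9.73 to 9.875 and 9.70 to 9.84) and Xbp1 (8.40 to 8.54 and 8.47 to 8.62). Myeloid markers (2 of 8) summed to 10.5 to 14.7 CPM in WT and 8.41 to 11.5 in KO, and stromal markers (2 of 7) to 129.3 to 146.1 and 130.0 to 147.0 CPM. Erythroid and platelet markers (0 of 7) reached at most 2.86 CPM, with Hba-a1 and Hba-a2 at the floor in all libraries. The part of these markers in the differences of the 10 genes was not tested. In bulk samples fewer cells of a type and less RNA per cell cannot be told apart.

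Per length of exon, Rgs13 was the most abundant of the 10 genes and Mybl1 the least. The level over all 6 libraries was 386 CPM per kb of exon for Rgs13, 298 for Neil1, 204 for Gcsam, 135 for Eaf2, 110 for Fas, 88.3 for Nuggc, 55.6 for Stap1, 42.8 for Lmo2, 19.1 for Efnb1 and 4.03 for Mybl1. Among neighbours in this order only Eaf2 (118 to 155) and Fas (102 to 119) had ranges over the libraries that overlapped. Rgs13, Neil1 and Gcsam stood at percentiles 98.2, 97.3 and 95.6 of the 9528 genes with a length, and Mybl1 at percentile 30.8. No exon of the 10 genes overlapped an exon of another gene in the GENCODE basic annotation.

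**Figure D2:**
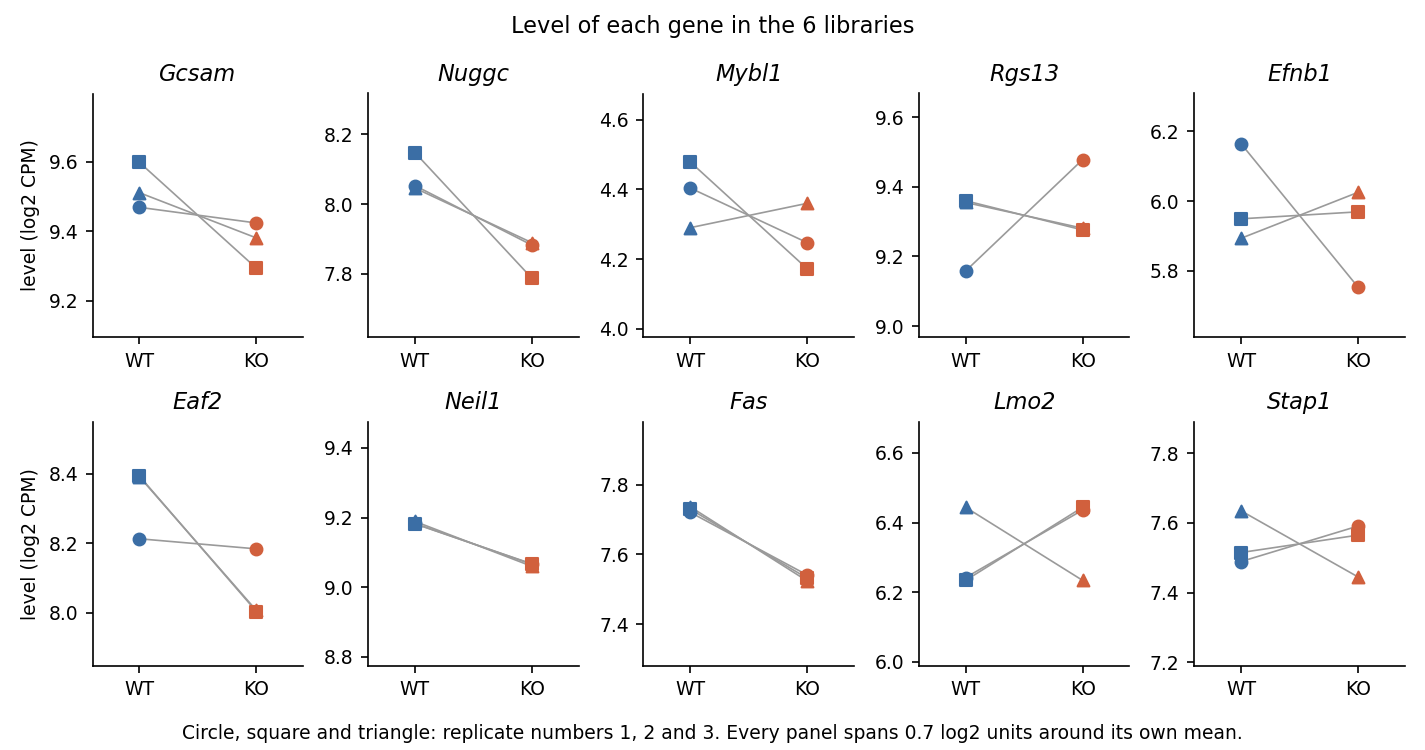
Level in log2 CPM (y axis) in the WT (blue) and KO (orange) libraries for each gene, with lines joining libraries of the same replicate number. Lines of Neil1 and Fas nearly coincide, and in Rgs13, Efnb1, Lmo2, Stap1 and Mybl1 some lines go up and others down.

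Fas and Eaf2 are the 2 genes tied to cell death. Fas, a death receptor of the tumour necrosis factor receptor family and a common surface marker for sorting germinal centre B cells, spans chromosome 19, 34290666 to 34327772, on the plus strand. It stood at 7.72, 7.73 and 7.74 log2 CPM in WT libraries 1 to 3 and at 7.54, 7.53 and 7.52 in the KO libraries. All WT libraries were thus high and all KO libraries low. Spread within a group was small, but replicate differences had been removed from these values, so it does not measure how replicates vary. The mean was 212.2 CPM in WT and 185.1 CPM in KO, a difference of -0.20 ± 0.0165 (SD, n = 3 pairs; 95% interval -0.34 to -0.05; limma adjusted p = 0.324). Which surface markers the sort used is not stated by the labels.

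Eaf2, a partner of the elongation factor ELL that promotes apoptosis of germinal centre B cells, spans chromosome 16, 36792884 to 36875003, on the minus strand. It had the smallest p of the 10 genes, rank 54 among all genes tested. The level was 8.21, 8.39 and 8.39 log2 CPM in WT libraries 1 to 3 and 8.18, 8.004 and 8.007 in the KO libraries. Pairs 2 and 3 differed by -0.39 and -0.38, and pair 1 by only -0.03. The mean was 322.3 CPM in WT and 267.8 CPM in KO, a difference of -0.27 ± 0.21 (SD, n = 3 pairs; 95% interval -0.41 to -0.12; limma adjusted p = 0.0923). Without pair 1 the difference was -0.39 and passed 5% FDR (limma adjusted p = 0.00485). Without pair 2 it was -0.21 (limma adjusted p = 1, as for all 10 genes in that fit). Without pair 3 it was also -0.21 (limma adjusted p = 0.289). With no filter on low values Eaf2 also passed, with an adjusted p of 0.0459 in limma.

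Of 11 other tested genes of the Fas death pathway 5 were lower, 6 higher and 0 passed 5% FDR or an unadjusted p under 0.05 in limma, with a median of 0.0013. The smallest p belonged to Xiap, an inhibitor of caspases (0.19 ± 0.16, adjusted p = 0.774), Faim, an inhibitor of Fas-induced apoptosis (-0.11 ± 0.21, adjusted p = 0.801), and Cflar, a decoy of the initiator caspase (0.13 ± 0.12, adjusted p = 0.826). Fasl, the ligand of Fas, lay at the floor in all 6 libraries. Of the 9 tested genes around ELL and EAF elongation factors 6 were lower and 3 higher, with a median of -0.048 and 0 genes at an unadjusted p under 0.05 or called. The 3 with the smallest p were Mllt3 (-0.45 ± 0.39), Aff4 (-0.19 ± 0.42) and Aff1 (-0.23 ± 0.50), parts of the super elongation complex. Their limma adjusted p-values were 0.648, 0.837 and 0.882. Mllt3 (3.27 CPM in WT and 2.39 in KO) and Aff1 (2.81 and 2.40) lay at low levels.

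Neil1 and Nuggc protect DNA. Neil1, a glycosylase that removes oxidized bases in base excision repair, spans chromosome 9, 57142800 to 57148305, on the minus strand. Its levels were 9.18, 9.18 and 9.19 log2 CPM in the WT libraries and 9.07, 9.07 and 9.06 in the KO libraries. The 3 paired differences, -0.117, -0.115 and -0.129, were nearly equal, and their SD of 0.0076 was larger than that of only 0.2% of the 500 genes closest in level. The mean was 581.9 CPM in WT and 535.3 CPM in KO, a difference of -0.12 (95% interval -0.25 to 0.01; limma adjusted p = 0.622). The fit takes most of its error from other genes, with a median of 81.2 prior against 2 residual degrees of freedom, so the closeness of a gene's own 3 pairs, as in Neil1 and Fas, enters its p little. An exact sign-flip test over 3 pairs cannot go below a two-sided p of 0.25.

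Nuggc, a nuclear GTPase of germinal centre B cells that limits DNA damage tied to antibody gene mutation, spans chromosome 14, 65598546 to 65648531, on the plus strand. It stood at 8.05, 8.15 and 8.05 log2 CPM in WT and at 7.88, 7.79 and 7.89 in KO. KO lay below WT in every pair, most in pair 2, with differences of -0.17, -0.36 and -0.16. The mean was 271.0 CPM in WT and 231.1 CPM in KO, a difference of -0.23 ± 0.11 (SD, n = 3 pairs; 95% interval -0.37 to -0.09; limma adjusted p = 0.1998). Of the 14 other tested base excision repair genes 7 were lower and 7 higher, with a median of -0.0057 and 0 genes called or at an unadjusted p under 0.05 in limma. Those with the smallest p were Xrcc1, a scaffold of strand break repair (-0.10 ± 0.09, adjusted p = 0.776), Ung, the uracil glycosylase that acts on products of antibody gene mutation (-0.15 ± 0.24, adjusted p = 0.837), and Parp1, a sensor of strand breaks (-0.07 ± 0.24, adjusted p = 0.845).

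**Figure D3:**
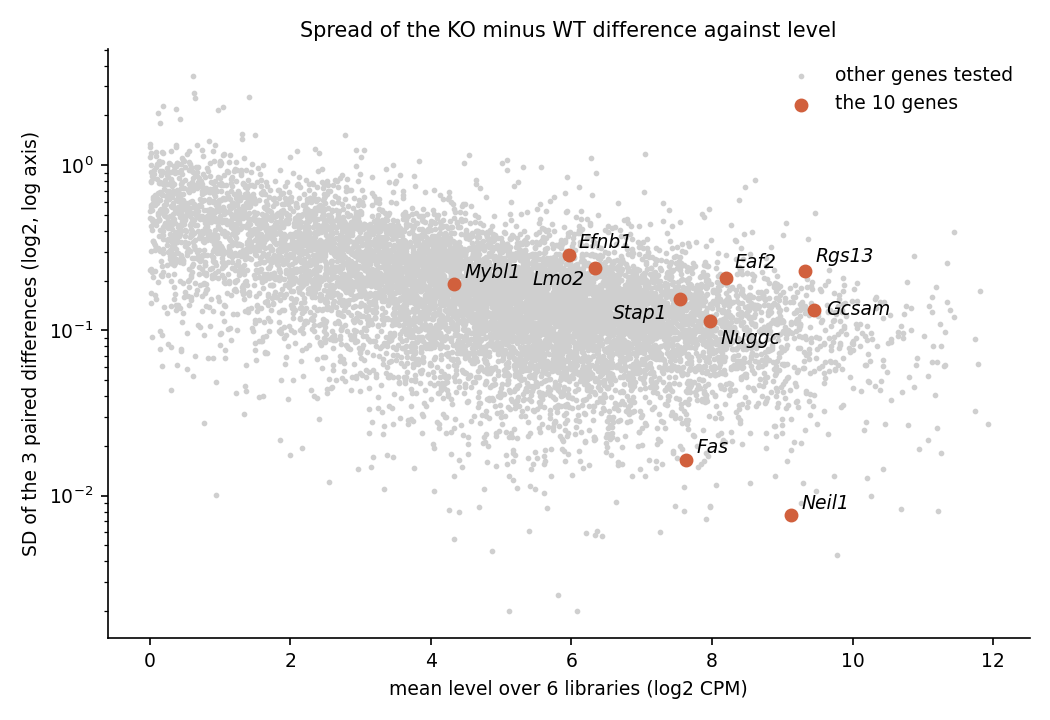
SD of the 3 paired differences (y axis, log scale) against mean level (x axis, log2 CPM) for the 10 genes (orange) and all other genes tested (grey). Neil1, at an SD of 0.0076, and Fas, at 0.0165, lie under nearly all genes of like level, and Rgs13, Efnb1, Lmo2 and Eaf2 lie above 91.2% to 95.8% of the 500 genes closest in level.

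Gcsam and Stap1 are signalling adaptors. Gcsam, which is phosphorylated on tyrosines after antigen receptor engagement and binds Syk, spans chromosome 16, 45610380 to 45622867, on the plus strand. It had the highest mean CPM of the 10 genes, at 9.47, 9.60 and 9.51 log2 CPM in WT and 9.42, 9.29 and 9.38 in KO. In KO library 1 Rgs13 was higher, at 9.48. The gap was widest in pair 2 (-0.30) and narrowest in pair 1 (-0.045), and the lowest WT library lay just above the highest KO library. The mean was 737.2 CPM in WT and 660.0 CPM in KO, a difference of -0.16 ± 0.13 (SD, n = 3 pairs; 95% interval -0.29 to -0.03; limma adjusted p = 0.364). Without pair 2 the difference was -0.09.

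Stap1, a docking protein downstream of the kinase Tec, spans chromosome 5, 86071746 to 86106125, on the plus strand. Its levels were 7.49, 7.52 and 7.64 log2 CPM in WT and 7.59, 7.57 and 7.45 in KO. The groups overlapped, with KO above WT in pairs 1 and 2 and below it in pair 3. The difference was -0.01 ± 0.16 (SD, n = 3 pairs; 95% interval -0.16 to 0.14; limma adjusted p = 0.987). Of 12 tested antigen receptor kinases and adaptors all 12 had a negative difference and 6 were lower in all pairs, beside 12.5% of all genes tested. Their median was -0.085, with pair medians of -0.125, -0.101 and -0.0065, and in pair 3 only 7 of 12 were lower. Of the 12, 2 had an unadjusted p under 0.05 in limma and 0 passed 5% FDR. Cd79b, a signalling chain of the receptor, differed by -0.14 ± 0.06 (adjusted p = 0.369), the kinase Syk by -0.17 ± 0.24 (adjusted p = 0.434) and the adaptor Grb2 by -0.11 ± 0.06 (adjusted p = 0.666). Cd79b and Cd79a are also among the pan B cell markers whose sum was lower in KO.

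Rgs13 and Efnb1 act in positioning and contact. Rgs13, which speeds up GTP hydrolysis by G proteins and so dampens chemokine receptor signals, spans chromosome 1, 144138654 to 144177372, on the minus strand. It stood at 9.16, 9.36 and 9.36 log2 CPM in WT and at 9.48, 9.28 and 9.28 in KO. Pair 1 was higher in KO (0.32) while pairs 2 and 3 were lower (-0.08 and -0.07), so the groups overlapped. The difference was 0.05 ± 0.23 (SD, n = 3 pairs; 95% interval -0.09 to 0.19; limma adjusted p = 0.894), and without pair 1 its sign turned (-0.079). An SD larger than Rgs13's was found in few of the 500 genes closest in level, since 95.8% had a smaller one.

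Efnb1, a membrane-bound ligand of Eph receptors through which germinal centre B cells act on follicular helper T cells, spans chromosome X, 99136130 to 99148991, on the plus strand. Its levels were 6.17, 5.95 and 5.89 log2 CPM in WT and 5.75, 5.97 and 6.03 in KO. Pair 1 stood apart here too, but in the direction opposite to Rgs13, at -0.41 against 0.02 and 0.13. The difference was -0.09 ± 0.29 (SD, n = 3 pairs; 95% interval -0.27 to 0.10; limma adjusted p = 0.867), and it was 0.076 without pair 1. Of the 15 other ephrin and Eph receptor genes only Efna1 was tested (0.19 ± 0.47, limma adjusted p = 0.935). The other 14 lay under 1 CPM, and Efna3, Epha4, Ephb1, Ephb4 and Ephb6 were at the floor in all libraries. Efnb1 was thus the only gene of its family above 2 CPM among those looked at.

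Among 12 tested RGS and G protein genes, 7 were lower and 5 higher, with a median of -0.039. Only Rgs2 had an unadjusted p under 0.05, and 0 passed 5% FDR in limma. Rgs2, another regulator of G protein signalling, stood at 6.92, 6.97 and 6.94 log2 CPM in WT and 6.73, 6.68 and 6.71 in KO, a difference of -0.24 ± 0.06 (SD, n = 3 pairs; limma adjusted p = 0.256). Gnai3, an inhibitory G protein subunit, differed by 0.12 ± 0.25 (adjusted p = 0.736), and Rgs12 by 0.28 ± 0.20 at about 5 CPM (adjusted p = 0.774).

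Mybl1 and Lmo2 are regulators of transcription. Mybl1, a MYB family factor found in germinal centre B cells and in male germ cells, spans chromosome 1, 9667415 to 9700209, on the minus strand. It was the lowest of the 10 genes, at 4.40, 4.48 and 4.29 log2 CPM in WT and 4.25, 4.17 and 4.36 in KO. KO was lower in pairs 1 and 2 and higher in pair 3, so the groups overlapped. The difference was -0.13 ± 0.19 (SD, n = 3 pairs; 95% interval -0.37 to 0.11; limma adjusted p = 0.830). Its interval is the widest of the 10.

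Lmo2, a LIM domain adaptor that bridges DNA-binding factors, spans chromosome 2, 103957986 to 103981878, on the plus strand. Its levels were 6.24, 6.23 and 6.44 log2 CPM in WT and 6.44, 6.44 and 6.23 in KO. As for Stap1, pairs 1 and 2 were higher in KO (0.19 and 0.21) and pair 3 was lower (-0.21). The difference was 0.06 ± 0.24 (SD, n = 3 pairs; 95% interval -0.11 to 0.24; limma adjusted p = 0.9003), and it was -0.0080 without pair 2 and 0.0000 without pair 1. Of the 10 tested MYB relatives and partners of LMO2 9 were lower on average and 1 in all pairs, with a median of -0.066 and pair medians of -0.073, -0.150 and 0.040, 2 at an unadjusted p under 0.05 in limma and 0 called. Lyl1, a basic helix-loop-helix partner of LMO2, differed by -0.36 ± 0.26 with 13.5 CPM in WT and 10.5 in KO (adjusted p = 0.385), Tcf3, an E protein, by -0.15 ± 0.18 (adjusted p = 0.473), and Id3, an inhibitor of E proteins, by -0.10 ± 0.13 (adjusted p = 0.771).

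The core factors and enzymes of the germinal centre, set beside the 10 genes, had 15 of 19 genes lower, a median of -0.071 and 0 genes called in limma, with 2 lower and 1 higher at an unadjusted p under 0.05. In the 3 pairs their medians were -0.109, -0.127 and 0.072, so pair 3 was not lower, while 8 of the 10 effector genes were lower in pair 3 and 7 each in pairs 1 and 2. Klhl6, a ubiquitin ligase adaptor of mature B cells, was higher by 0.19 ± 0.08 (967.6 CPM in WT and 1100 in KO, limma adjusted p = 0.229). Foxo1, a factor of the dark zone, differed by -0.27 ± 0.33 (adjusted p = 0.371) and Tcf3 as given above. Over all 8 lists of related genes 85 genes besides the 10 were tested, and 0 passed 5% FDR in limma. An unadjusted p under 0.05, in either direction, was found for 7 of them, beside 894 of all 10133 genes tested, a like share. The medians of the Fas pathway and of base excision repair lay within 0.01 of 0, and those of the effector genes and of antigen receptor signalling lay lowest; these differences between lists were not tested.

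**Figure D4:**
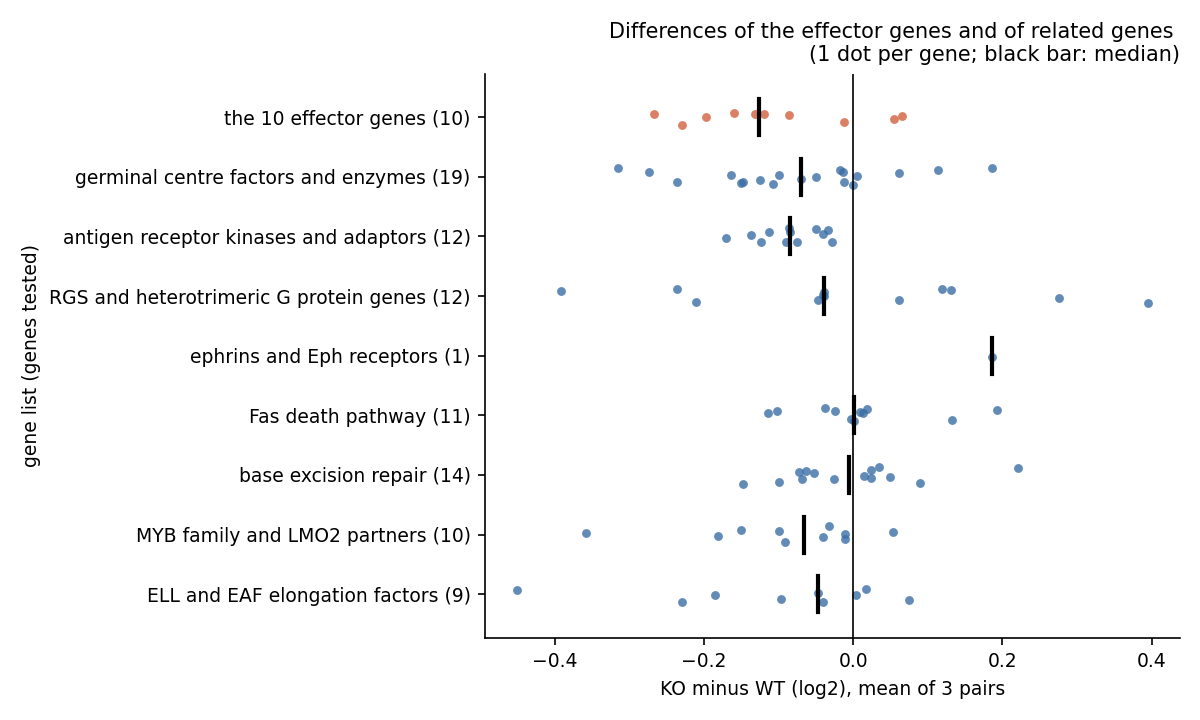
Mean difference between KO and WT (x axis, log2) of each tested gene in the 10 effector genes (orange) and in 8 lists of related genes (blue), with the median of each list as a black bar. The effector genes have a median of -0.13 and the 12 antigen receptor genes all lie below 0.

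Of the 5 genes with KO wholly below WT, 4 have a promoter in the RefSeq table used here (GRCm38.p6); of all 10 genes 6 do. The stretches before the transcript start, trimmed to leave out annotated exons, are printed because these 4 genes were lower in all 3 pairs. Neil1 is read on the minus strand of chr9:57148306-57148555, Fas on the plus strand of chr19:34290409-34290658, Eaf2 on the minus strand of chr16:36828262-36828384 (before the start nearest its principal transcript, 1 of 3 windows), and Gcsam on the plus strand of chr16:45610190-45610379. Capitals mark matches, on either strand, to any of 7 motifs.
Neil1: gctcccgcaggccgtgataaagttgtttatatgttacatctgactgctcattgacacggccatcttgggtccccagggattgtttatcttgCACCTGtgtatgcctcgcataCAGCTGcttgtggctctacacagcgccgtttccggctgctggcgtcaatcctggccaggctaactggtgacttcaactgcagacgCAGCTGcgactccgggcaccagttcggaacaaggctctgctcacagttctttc
Fas: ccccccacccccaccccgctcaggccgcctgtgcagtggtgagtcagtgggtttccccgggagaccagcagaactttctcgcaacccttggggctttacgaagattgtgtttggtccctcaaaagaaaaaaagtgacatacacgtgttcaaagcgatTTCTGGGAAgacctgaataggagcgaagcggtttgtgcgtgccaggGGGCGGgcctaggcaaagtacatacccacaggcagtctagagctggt
Eaf2: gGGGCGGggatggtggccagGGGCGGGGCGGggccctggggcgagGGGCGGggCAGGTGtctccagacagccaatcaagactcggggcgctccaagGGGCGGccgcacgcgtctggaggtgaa
Gcsam: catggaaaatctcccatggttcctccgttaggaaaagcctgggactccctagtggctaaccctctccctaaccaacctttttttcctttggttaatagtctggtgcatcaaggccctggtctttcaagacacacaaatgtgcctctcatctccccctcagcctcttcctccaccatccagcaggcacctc
The motifs searched, in the whole 250 bases before the start also where fewer are printed, were the octamer ATTTGCAT, the E-boxes CAGCTG and CAGGTG, the ETS type sites GAGGAAGT and CCGGAAGT, the STAT and BCL6 type site TTCNNNGAA and the GC box GGGCGG. Neil1 held CAGCTG at 2 places, positions -138 and -53 from the start, and CAGGTG once on the opposite strand. Over the same 250 bases of all 32851 starts in the table, 13.0% held CAGCTG and 17.2% CAGGTG. Fas held 1 match to TTCNNNGAA, at position -93, which 7.02% of starts held, and 1 GC box, which 32.7% held. Eaf2 held 5 GC boxes, of which 2 shared bases, and 1 CAGGTG, and Gcsam held none of the 7 motifs. No motif was found in all 4 of these promoters. The motifs are matches of letters only, and binding was not measured.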

How the data were processed

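Messenger RNA libraries (Illumina TruSeq mRNA, NextSeq500, per the labels' protocols) of 3 KO and 3 WT samples were used. Per the submitters' processing notes, the authors used STAR 2.6.1a and build mm10, beside Trim Galore 0.6.5 and FastQC 0.11.7, featureCounts and Subread 2.0.1, and limma. Settings are not stated there. The deposited values are log2 values, read as log2 CPM from their linear sums, after quantile-like normalization and removal of replicate differences, both worked out from the values. Neither step is stated in the sources used here, and depth and counting precision are unknown.

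The difference between KO and WT was fitted with limma 3.58.1 under R 4.3.3 (genotype and replicate number, variance trend, robust moderation, two-sided), with Benjamini-Hochberg adjustment over 10133 genes with a geometric mean of at least 1 CPM and more than 1 value, and called at 5% FDR. The number was kept as a block because removal of its effect had already used 2 degrees of freedom per gene. The labels do not say what a number stands for, and the correlation of same-numbered libraries is fixed by that removal, so it cannot show pairing. CPM of a group are geometric means. Exon lengths and positions came from GENCODE M21 (GRCm38, the same assembly as mm10). All 10 genes were named, and for each list of related genes the 3 with the smallest p. The members and lists were chosen with earlier results of these data known. Alternatives were other fits, filters, offsets and scalings, and leaving out each replicate number.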

Additional observations from a re-analysis of the deposited data

How the results depend on the processing

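The 10 genes were recomputed under 10 alternatives. Of the 100 values 92 kept their direction and their side of 5% FDR, 5 lost or turned their sign and 3 passed the threshold. The number of the 10 genes called was 0, and it became 1 without the replicate block (Fas, limma adjusted p = 0.0352), 1 with no filter on low values (Eaf2) and between 0 and 1 when 1 replicate number was left out, with Eaf2 called without replicate 1. When 1 replicate number was left out, signs turned for Rgs13 (-0.079 to 0.123, negative without replicate 1), Efnb1 (-0.196 to 0.076, positive without replicate 1), Lmo2 (-0.0080 to 0.202, negative without replicate 2 and 0.0000 without replicate 1) and Stap1 (-0.070 to 0.076, positive without replicate 3). The number of genes lower in KO was 7 to 9 of 10 without 1 replicate number and 8 in all other settings. Their median ran from -0.18 to -0.11 when 1 replicate number was left out. Over all genes tested the calls went from 27 to 142 without the replicate block, 12 with non-robust moderation, 95 with no filter and 0 with no variance trend (640 at an unadjusted p under 0.05), and from 11 to 136 when 1 replicate number was left out (136 without replicate 1, 11 without replicate 2, 102 without replicate 3). Of the 27 calls 17 were higher in KO, against 27 of 136, 4 of 11 and 28 of 102 without replicates 1, 2 and 3, 42 of 95 with no filter and 13 of 28 with a mean of at least 8 CPM. With no variance trend the Basp1 difference of -2.51 had an adjusted p of 0.150 in limma, so that setting also misses the deleted gene. In the fit without the block, degrees of freedom already used count as free. Equal library medians moved libraries by at most 0.00217. The unknown depth limits what can be said of Mybl1, the gene with the lowest level.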
